A study of Coprinopsis cinerea AmutBmut pab1-1 with 201 samples.

Results

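The genes kept high in aerial mycelium were the 148 of 13617 counted genes of the inky cap mushroom Coprinopsis cinerea chosen by their measured level, which was at least 2 times higher in aerial than in attached mycelium at each of 8 sampling times. Aerial mycelium is the part of the colony that stands up into the air, and attached mycelium is the part that lies on the agar. Levels were in CPM, a gene's count per 1000000 counts of its library, averaged over 3 libraries and raised by 0.5 before each ratio. A mean of 10 CPM or more over the 8 aerial groups was also asked for, which 7199 genes had. The rule kept at most 200 genes, a limit that was not reached.

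Transcripts were counted with QuantSeq, which reads only the 3′ end of each mRNA, in 201 libraries from 67 groups of 3. Every library came from the strain AmutBmut pab1-1, which carries mutations in both mating type factors and therefore forms fruiting bodies without a mate, and a pab1 mutation that makes it depend on added p-aminobenzoic acid. All mycelium, knots, primordia and spores below share these alleles. Replicate numbers came from the titles, and nothing said that replicates were separate cultures. Each p-value thus sets a difference only against the scatter among these samples, and that scatter may be technical.

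The 8 pairs of aerial and attached mycelium were taken in the dark at 156 h, after 1 h and 2 h of light, and after 2 h of light followed by 2, 6, 12, 18 and 24 h of dark. Hyphal knots, the first aggregates of a fruiting body, were taken at the last of these times, and primordia 6, 12, 18 and 24 h into a cycle of 12 h of light and 12 h of dark. A second knot series on 1% water agar had labels with 30, 22.5, 15 and 7.5 h after a minus sign, a label with no time and one with 7.5 h after a plus sign, read here as times before and after the knot stage. Whole mycelium was sampled in the dark at 12, 36, 60, 84, 108 and 132 h, and 2, 4, 8, 16 and 24 h after a move from rich YMG medium to water agar. Oidia, which are asexual spores, and basidiospores, which are sexual ones, were taken at rest and while germinating. Sclerotia grown for 4 weeks, contact with the fungus Trichoderma and a panel of stresses made up the other groups. The sclerotia were labelled as possibly holding a little mycelium, and the mycelium of the stress groups was not split into aerial and attached parts. Heat-shocked cultures were labelled 6 days old, as was mycelium frozen for 30 minutes at −20 °C. Plates sealed at 28 °C in the dark were also labelled with 6 days. Dark mycelium at 132 h was the labelled control of these groups. Cultures with cobalt chloride were labelled 7 days old and had 2 h of light and then 22 h of dark. The label of their control gives no age or light.

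Aerial hyphae leave the moist substrate and grow in air. In fungi such as Schizophyllum commune their walls are coated with hydrophobins, small secreted proteins that make the surface water repellent. In C. cinerea the aerial mycelium also carries the stalks that bear oidia, and the knots from which mushrooms develop start among its hyphae after light. The deposited gene identifiers are not paired with names, and 0 of the 13617 matched the reference table of 13657 genes of another strain. The labelled tissues could therefore not be checked against marker genes, no role is given for any member, and the members are ordered by their values.

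Library totals were 6006652 to 13065765 counts in the 24 aerial libraries, 1034515 to 26101402 in the 24 attached ones and 213736 to 21194533 in the other 153. The smallest totals belonged to Trichoderma overgrowth, which no test below uses. In 4 members 50% or more of the nonzero counts were not whole numbers. Among the 148, 32 members overlapped a gene on the other strand and 3 one on the same strand. The strand setting of the counting is not given in the sources used here, so reads of these pairs cannot be told apart.

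The members held 2.03% to 5.95% of all counts in the aerial libraries and 0.350% to 1.37% in the attached ones. In the dark at 156 h their share was 4.99% ± 0.459 in aerial and 0.781% ± 0.168 in attached mycelium (SD, n = 3 each), and after 1 h of light it was 3.85% ± 0.147 in aerial and 0.510% ± 0.0376 in attached mycelium. After 24 h of dark that followed light, it was 5.45% ± 0.709 in aerial and 1.09% ± 0.275 in attached mycelium. No aerial library overlapped any attached library at any time. These values chose the members and are a description. In such bulk samples, fewer cells of a type and less RNA per cell cannot be told apart.

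**Figure D1:**
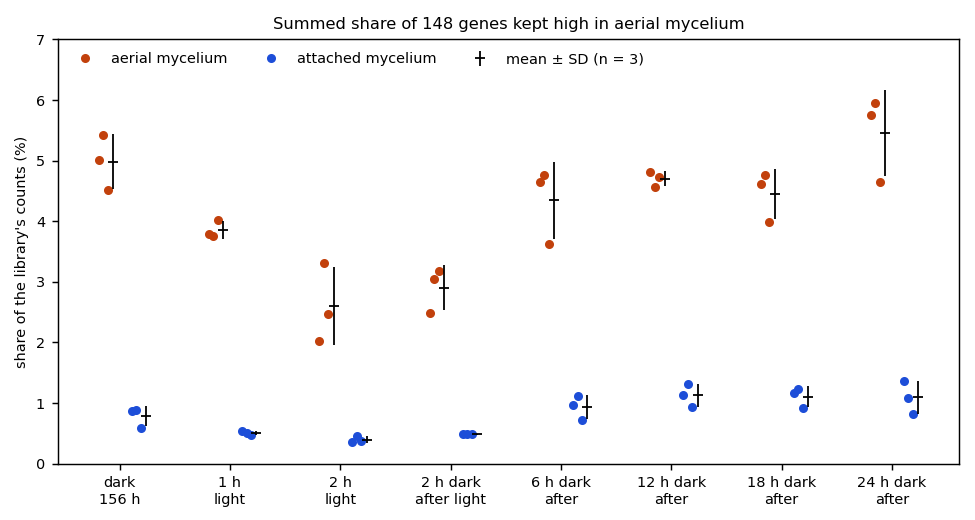
Share of each library's counts that fell on the 148 genes (y axis, %), by sampling time (x axis), with aerial libraries left of attached ones, 1 point a library and mean ± SD of 3 beside them. The aerial libraries lie between 2.03% and 5.95% and the attached ones between 0.350% and 1.37%.

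A few members made up most of this share. CopciAB_468111.T0 (scaffold 10, 1972689 to 1973403 of the authors' CopciAB V2 annotation, 3 exons, 110 amino acids) alone made up 18.3% of the members' summed aerial level, the top 6 made up 53.6% and the top 10 made up 64.7%. Its dark level was 12529, 13967 and 9617 CPM in aerial and 1485, 1452 and 794 CPM in attached mycelium. All 3 aerial libraries were several times above the attached ones, while 18 h after light the groups touched, with 1585, 2983 and 6996 CPM in aerial and 311, 885 and 1678 CPM in attached mycelium. Its counts were not whole numbers in 49.3% of the libraries.

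CopciAB_501042.T0 (scaffold 8, 1613830 to 1615771, 10 exons, 415 amino acids) came second, with a lowest, median and highest library of 1379, 3705 and 8804 CPM in aerial and 55.9, 342 and 3812 CPM in attached mycelium. CopciAB_370922.T0 (scaffold 2, 3159003 to 3159759, 4 exons, 114 amino acids) had 1010, 3902 and 7534 CPM in aerial and 265, 707 and 3230 CPM in attached mycelium. CopciAB_376281.T0 (scaffold 8, 1621633 to 1624705, 9 exons, 778 amino acids) had 589, 2444 and 5243 CPM in aerial and 24.4, 238 and 1956 CPM in attached mycelium. The ranges of these 3 genes over all times overlapped between the tissues, although the libraries of a given time did so only for CopciAB_501042.T0, in 1 of 8 pairs. The next 4, CopciAB_559260.T0, CopciAB_511951.T0, CopciAB_447968.T0 and CopciAB_502602.T0, averaged between 1188 and 2017 CPM in aerial mycelium, and CopciAB_358.T0 and CopciAB_545723.T0 averaged 963 and 794 CPM. The other end of the list was far lower: the median member averaged 67.1 CPM in aerial mycelium, the lowest 10.4, and 14 members were under 20.

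Ranked by ratio, CopciAB_400893.T0 (scaffold 12, 164049 to 164900, 3 exons, 189 amino acids) stood first, with a geometric mean of 24.5 over the 8 pairs and no pair under 11.6. In the dark it had 489, 638 and 587 CPM in aerial and 25.0, 31.5 and 16.7 CPM in attached mycelium, and 24 h after light it had 1728, 1421 and 947 CPM in aerial and 30.8, 39.5 and 31.1 CPM in attached mycelium. The tissues were apart in all 8 pairs. It overlaps a gene on the other strand. CopciAB_446192.T0 (scaffold 13, 914420 to 915079, 3 exons, 114 amino acids) held the widest single ratio, 121, from 401, 505 and 296 CPM in aerial and 0.307, 2.23 and 5.87 CPM in attached mycelium 24 h after light. Its ratio after 2 h of light was 3.39, the smallest of its 8. CopciAB_501653.T0, CopciAB_1002628.T0, CopciAB_559313.T0, CopciAB_547067.T0, CopciAB_504102.T0, CopciAB_427537.T0 and CopciAB_362513.T0 followed with geometric means of 16.8 to 12.7. CopciAB_414471.T0, CopciAB_462618.T0, CopciAB_1001491.T0, CopciAB_367244.T0, CopciAB_367957.T0 and CopciAB_376281.T0 had 12.3 to 11.3.

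Over the whole list the geometric mean ratio ran from 2.36 to 24.5 with a median of 5.55. It was 10 or more in 20 members and under 4 in 35. In 117 members every aerial library lay above every attached library in all 8 pairs, against 3.61% of the 7199 genes, a share from which nothing is read because the rule used the same libraries. The fewest pairs without overlap was 5, in 2 members. The members' median ratio was 5.17 in the dark, 7.15 with 1 h of light, 3.71 in the 18 h pair and 6.06 in the 24 h pair. The median ratio of the 7199 genes was 1.14, 1.10, 1.11 and 1.35 in the same pairs, so at 24 h it too was raised. For 49 members the 18 h pair was the lowest of the 8. A single pair at 2-fold or more held 11.2% of the 7199 genes in the dark, 10.9% and 9.75% with 1 h and 2 h of light, 8.78%, 7.63%, 8.58% and 7.24% from 2 to 18 h later, and 17.7% in the 24 h pair. Just inside the rule lay CopciAB_359052.T0 with a lowest ratio of 2.01, CopciAB_481308.T0 with 2.02 and CopciAB_517961.T0 with 2.03. Just outside lay CopciAB_442548.T0 with 2.00 (1.9971), CopciAB_437827.T0 with 1.99 and CopciAB_496344.T0 with 1.99. The 3 lowest ranked members were CopciAB_465583.T0, CopciAB_481308.T0 and CopciAB_12114.T0, with geometric means of 2.55, 2.43 and 2.36. At 2-fold in 1 pair or more there were 2080 genes, in 4 or more 620 and in 7 or more 241, so most genes that were higher in aerial mycelium at some time were not so throughout.

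The members' levels in and after light were set against those of the dark libraries at 156 h, and since the rule used these libraries the counts are given without a test. Light and the hours that had passed cannot be told apart, as every later group had been lit. A gene was counted where its level was at least 2-fold from that of the dark libraries of the same tissue with no overlap of libraries, and all values share those dark libraries. With 1 h of light, 33 members were lower and 19 higher in aerial mycelium, against 6.63% and 9.49% of the 7199 genes, and 46 were lower and 10 higher in attached mycelium, against 7.35% and 9.18%. With 2 h of light, 60 were lower and 9 higher in aerial mycelium, against 8.11% and 11%, and 62 were lower and 5 higher in attached mycelium, against 10% and 13%. More members thus lay below the dark level than above it in both tissues, at a median log2 ratio of −0.85 in aerial and −0.91 in attached mycelium with 2 h of light, where the 7199 genes had 0.11 and 0.16.

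In each later group and both tissues, fewer members were below the dark level than with 2 h of light. After 2 h of dark that followed light, 55 members were lower and 12 higher in aerial mycelium, against 7.89% and 10.8%, and 47 were lower and 12 higher in attached mycelium, against 8.5% and 11.6%. After 6 h, 32 were lower and 18 higher in aerial mycelium, against 5.14% and 8.93%, and 27 were lower and 17 higher in attached mycelium, against 4.45% and 7.4%. The 12 h groups were near balance, with 23 lower and 24 higher in aerial mycelium, against 7.25% and 12.3%, and 16 lower and 23 higher in attached mycelium, against 4.63% and 8.65%. After 18 h, 27 were lower and 24 higher in aerial mycelium, against 9% and 9.45%, and 17 were lower and 34 higher in attached mycelium, against 10.3% and 10.4%. Few of the 7199 genes set the aerial libraries of 24 h apart from the dark ones, with 0.875% lower and 2.06% higher. Among the members 2 were lower and 15 higher there, at a median log2 ratio of 0.07. In attached mycelium 24 were lower and 16 higher at 24 h, against 12.8% and 3.58%.

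CopciAB_371700.T0 (scaffold 2, 3727685 to 3730217) had the smallest ratio of light to dark in aerial mycelium, 0.05 for the mean of 1 h and 2 h. It had 12.7, 8.02 and 27.0 CPM after 1 h of light, 3.11, 13.2 and 6.05 CPM after 2 h, and 292, 276 and 103 CPM in the dark. No library in light came near those in the dark. CopciAB_359052.T0 stood at 0.08 and CopciAB_273741.T0 at 0.12 of the dark level. In the other direction CopciAB_1000610.T0 (scaffold 3, 495537 to 496224, overlapping a gene on the other strand) stood at 6.79 times its dark level. It had 141, 218 and 286 CPM after 1 h of light and 25.7, 27.2 and 26.7 CPM in the dark in aerial mycelium. Its attached libraries had 28.1, 27.1 and 72.2 CPM after 1 h of light and 3.43, 3.76 and 5.73 CPM in the dark. Both tissues were thus higher in light, without overlap. CopciAB_503075.T0 stood at 4.63 and CopciAB_32009.T0 at 4.28 times the dark level.

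Hyphal knots held far less of these transcripts than the aerial mycelium of the same time. Of the 148 members, 129 were at least 2-fold lower in knots than in aerial mycelium with no overlap and 1 was higher, against 10.6% and 4.93% of the 7199 genes, at a median log2 ratio of −2.29 against −0.24. Against attached mycelium, 43 were higher and 11 lower in knots, against 9.83% and 3.93%, at a median of 0.32 against 0.20. The knots are compared here with libraries of the rule, so this too is a description. The members' share of all counts was 1.79% ± 0.0729 in knots (SD, n = 3).

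Outside the tissues that chose them, the group with the highest median level of the members was one of the knot series on water agar, and the group with the highest share of counts was one of the primordia. The share averaged 4.70% in primordia at 12 h and 3.87% at 6 h, and between 2.24% and 3.26% in the groups of the water agar knot series. The median level in that series was 4.91 log2 CPM at the label of 30 h before knots, 5.39 at 22.5 h, 5.66 at 15 h, 5.54 at 7.5 h, 5.43 in the knots and 5.52 at 7.5 h after them. In the 8 aerial groups it was between 5.33 and 6.26, and in the attached groups between 2.69 and 3.97. Primordia stood between 4.67 and 4.86, resting oidia at 2.89 and germinated basidiospores lowest of all 67 groups, at 0.76. In 18 h primordia the 3 libraries spread from 1.98% to 5.29% of counts, the widest spread of any group, and no test below compares that group. Over the 51 groups outside the rule, 63 members (42.6%) had their highest mean in the water agar knot series, as did 8.38% of the 7199 genes. Another 34 (23.0%) were highest in the other knots or primordia, against 14.1%. The highest of all 67 groups was an aerial one for 74 members, and for 30 members some group outside the rule reached 2 or more times the highest aerial mean. In 21 members no outside group reached even 0.5 of it. The last 3 counts use the aerial levels that chose the members, so they are a description. Their shares over the 7199 genes were not computed.

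**Figure D2:**
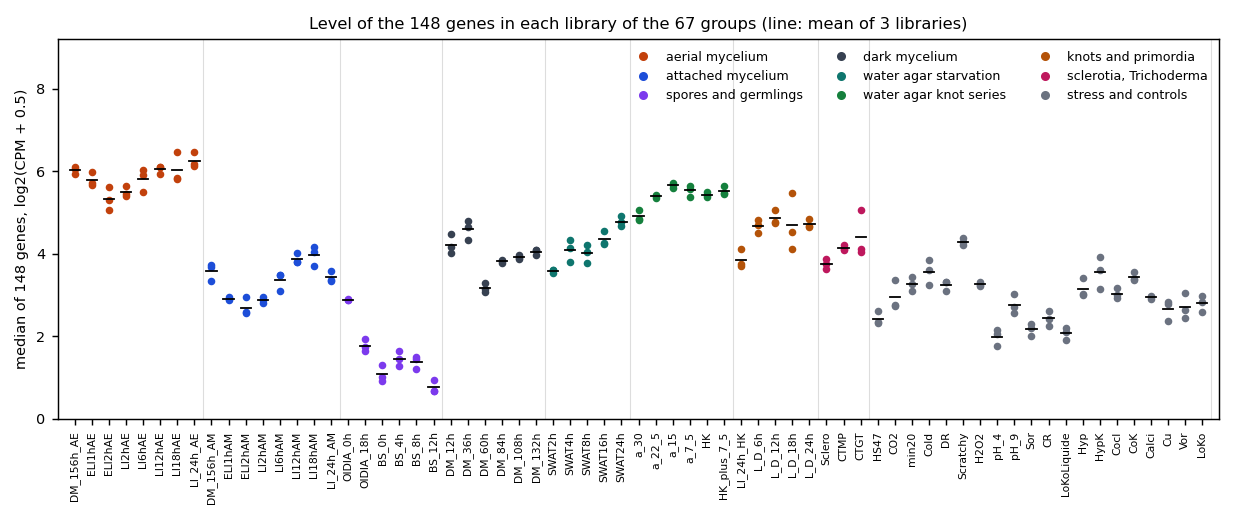
Median of the 148 genes in each library (y axis, log2 of CPM + 0.5), for the 67 groups (x axis, names as in the sample labels), with aerial left of attached mycelium and lines at the mean of 3 libraries. The aerial groups lie between 5.33 and 6.26, the water agar knot series between 4.91 and 5.66, and germinated basidiospores lowest at 0.76.

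The median correlation between pairs of members was a Pearson r of 0.50 over the 51 group means of log2 CPM, and 0.13 between pairs of the 7199 genes. Over the 8 aerial groups alone it was 0.27 and 0.02. Group means share library preparation, depth and a fixed sum, so these are descriptions. The heat map of all members shows each gene's level in each group.

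**Figure D3:**
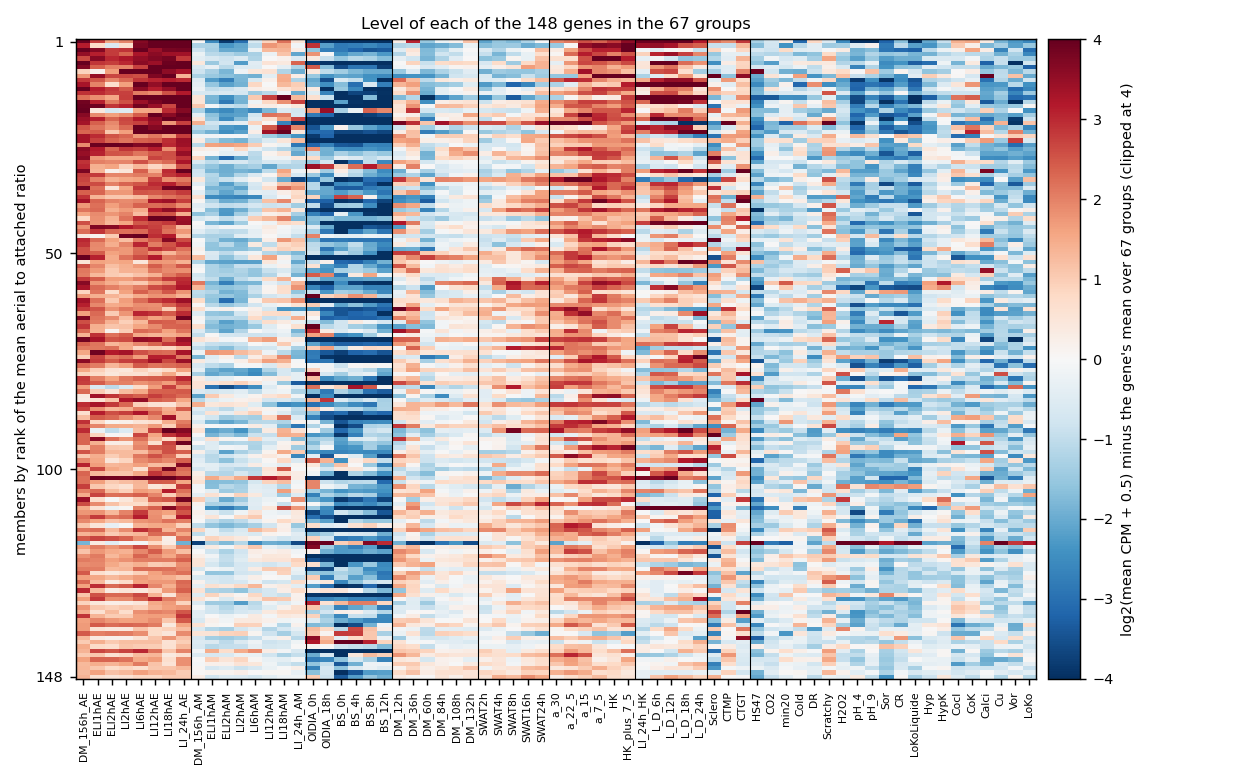
Mean level of each of the 148 genes (rows, by rank of the aerial over attached ratio) in the 67 groups (columns), as log2 CPM minus the gene's mean over the groups, clipped at 4. Aerial columns are high by the rule, the water agar knot series is high in most rows, and spores are low.

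The comparisons that follow use libraries the rule did not touch, with edgeR's quasi-likelihood test over all genes that passed its filter on low counts. Calls needed a fold of at least 2 together with an adjusted p (Benjamini-Hochberg) under 0.05. Each count of members stands beside the share of all genes called in that direction. Members that failed the filter, from 0 to 21 of 148, are not among those tested.

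**Figure D4:**
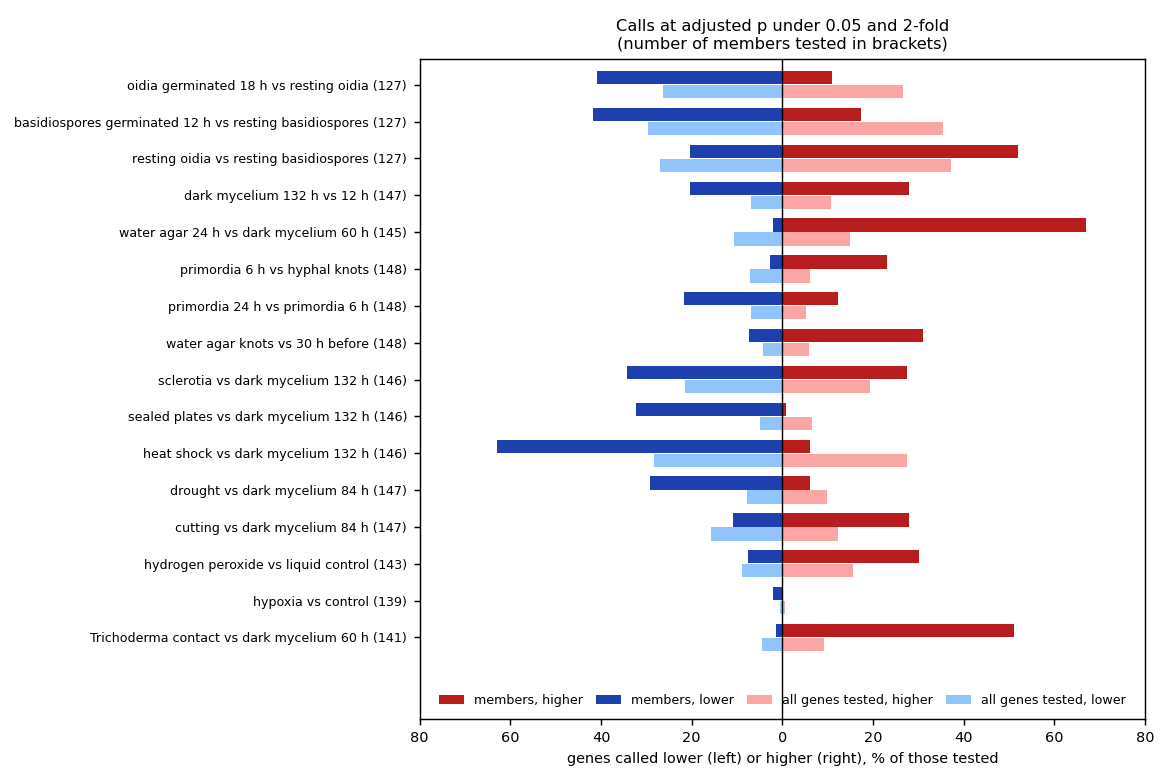
Members (dark bars) and all tested genes (pale bars) called higher (right) or lower (left), as % of those tested (x axis), in 16 comparisons, with the number of members tested in brackets. The members' bar is longest to the right for water agar at 24 h (66.9%) and to the left for heat shock (63.0%).

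Germinated oidia and 12 h basidiospores had more members called lower than higher. The members' share of counts was 0.325% ± 0.0944 in oidia after 18 h and 1.02% ± 0.0628 at rest (SD, n = 3 each). In basidiospores it was 0.167% at rest, 0.262% at 4 h, 0.291% at 8 h and 0.140% at 12 h, so of the times of germination only the last lay below the resting mean. In oidia germinated for 18 h, 52 of the 127 members tested fell and 14 rose against resting oidia, where 26.3% of all genes fell and 26.7% rose, at a median log2 change of −0.77 against 0.03. In basidiospores germinated for 12 h, 53 fell and 22 rose against resting ones, where 29.7% of all genes fell and 35.4% rose, at a median of −0.78 against 0.21. CopciAB_447634.T0 had 56.5, 51.4 and 64.4 CPM in germinated and 2585, 1317 and 2018 CPM in resting oidia, a log2 change of −4.81 ± 0.25 (SE, edgeR adjusted p = 2.97e-12). The 2 groups are far apart. CopciAB_1002682.T0 fell likewise, by 3.77 ± 0.28 (adjusted p = 1.71e-10). CopciAB_465583.T0, whose counts were not whole in 60.7% of libraries, rose to 58.9, 58.0 and 59.5 CPM in germinated oidia, against 17.3, 12.5 and 13.4 CPM in resting ones, and CopciAB_427210.T0 rose by 1.90 ± 0.30 (adjusted p = 1.08e-05).

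In germinating basidiospores CopciAB_446662.T0, which overlaps a gene on the same strand, had 5.60, 7.19 and 3.10 CPM at 12 h and 168, 173 and 243 CPM at rest, a log2 change of −5.82 ± 0.39 (adjusted p = 1.63e-11). CopciAB_1001003.T0 fell by 4.84 ± 0.29 (adjusted p = 3.12e-12). CopciAB_264920.T0 went the other way, with 268, 269 and 149 CPM at 12 h and 3.15, 2.41 and 3.57 CPM at rest, a log2 change of 5.58 ± 0.40 (adjusted p = 6.22e-11). None of these groups overlapped. CopciAB_481308.T0 rose as well, by 3.23 ± 0.26 (adjusted p = 2.23e-10).

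Resting oidia, which aerial mycelium bears, held more of the members than resting basidiospores, which form in the cap. Of 127 members tested, 66 were higher and 26 lower in oidia, where 37.1% of all genes were higher and 27.1% lower, at a median of 1.49 against 0.32. CopciAB_447634.T0 had 2585, 1317 and 2018 CPM in oidia and 65.7, 64.0 and 85.8 CPM in basidiospores, a log2 difference of 3.67 ± 0.24 (adjusted p = 1.56e-11). CopciAB_504102.T0 had 57.2, 43.2 and 46.3 CPM in oidia and 0.175, 0.534 and 0.0550 CPM in basidiospores, a difference of 6.60 ± 0.43 (adjusted p = 1.58e-11). CopciAB_493627.T0 and CopciAB_427225.T0 were lower in oidia, by −4.40 ± 0.33 (adjusted p = 1.12e-10) and −6.42 ± 0.59 (adjusted p = 2.75e-09). The 3 spore comparisons share their resting libraries and 1 fit.

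Along the dark course the members dipped at 60 h. Their median level was 4.22 log2 CPM at 12 h and 4.60 at 36 h, dropped to 3.16 by 60 h, and then stood at 3.82, 3.92 and 4.05 at 84, 108 and 132 h. CopciAB_468111.T0 followed the same course, with 4345, 3402 and 5209 CPM at 12 h, 601, 599 and 738 CPM at 60 h and 2249, 2400 and 2251 CPM at 132 h. At 132 h, 41 of 147 members tested were higher and 30 lower than at 12 h, against 10.6% and 7% of all genes, at a median of 0.10 against 0.03. CopciAB_446662.T0 had 40.2, 38.9 and 51.1 CPM at 132 h and 4.41, 3.37 and 5.14 CPM at 12 h, a log2 change of 3.62 ± 0.18 (adjusted p = 2.56e-11), and it first left its low level at 84 h with 23.9, 22.3 and 19.5 CPM. CopciAB_447634.T0 rose by 2.90 ± 0.17 (adjusted p = 1.6e-10). CopciAB_426597.T0 had 36.8, 31.6 and 33.0 CPM at 132 h and 279, 222 and 291 CPM at 12 h, a change of −2.67 ± 0.20 (adjusted p = 3.55e-09), and CopciAB_441323.T0 fell by 1.91 ± 0.16 (adjusted p = 1.8e-08).

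Most members were higher after a move to water agar. At 24 h, 97 of 145 tested were higher and 3 lower than in the labelled control, dark mycelium at 60 h, where 14.9% of all genes were higher and 10.7% lower, at a median of 1.82 against −0.00. CopciAB_468111.T0 had 5206, 5203 and 5671 CPM at 24 h and 601, 599 and 738 CPM in the control, a log2 change of 3.13 ± 0.17 (adjusted p = 1.66e-11), and at 2 h it already had 1741, 1818 and 1729 CPM. No single step held the change in the whole list, whose median level was 3.58, 4.09, 4.02, 4.35 and 4.78 log2 CPM at 2, 4, 8, 16 and 24 h. CopciAB_427075.T0 had 144, 154 and 169 CPM at 24 h and 15.3, 9.25 and 12.6 CPM in the control, a change of 3.73 ± 0.19 (adjusted p = 7.49e-12). CopciAB_494418.T0 and CopciAB_375788.T0 fell, by 1.32 ± 0.32 (adjusted p = 0.00187) and 1.62 ± 0.46 (adjusted p = 0.0107). The second of these calls was lost without the second 60 h library, and both were lost against dark mycelium at 84 h. The control lies at the low point of the dark course. Against dark mycelium at 84 h, 62 members were higher and 1 lower at a median of 0.90, where 11.1% of all genes were higher and 8.07% lower. Against 2 h on water agar, 72 were higher and 1 lower at a median of 1.19, where 7.93% of all genes were higher and 3.27% lower, and CopciAB_494418.T0 stood at 0.92. Both of these controls were chosen after seeing the data.

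Contact with Trichoderma was set against the same 60 h libraries. There 72 of 141 members tested were higher and 2 lower, where 9.23% of all genes were higher and 4.57% lower, at a median of 1.08 against 0.00. CopciAB_501042.T0 had 615, 607 and 558 CPM in contact and 61.5, 54.3 and 57.4 CPM in the control, a log2 change of 3.32 ± 0.16 (adjusted p = 4.48e-06). CopciAB_444852.T0 had 234, 293 and 217 CPM in contact and 29.7, 25.1 and 29.2 CPM in the control, a change of 3.10 ± 0.19 (adjusted p = 9.89e-06). CopciAB_432177.T0 and CopciAB_375280.T0, both overlapping a gene on the other strand, fell by 1.42 ± 0.26 (adjusted p = 0.00334) and 1.72 ± 0.41 (adjusted p = 0.0118). Against dark mycelium at 84 h, a control chosen after seeing the data, 28 were higher and 12 lower at a median of 0.35, where 7.43% of all genes were higher and 6.23% lower. CopciAB_501042.T0 then stood at 0.35 (adjusted p = 0.0468), under the 2-fold limit, and CopciAB_375280.T0 was no longer called. The other control thus moved the count of this comparison by more than 1.5 times.

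In the knot series on water agar, most members were not called. At the knot label, 46 of 148 were higher, 11 lower and 91 not called, set against the label of 30 h before, where 5.94% of all genes were higher and 4.18% lower, at a median of 0.53 against 0.04. CopciAB_139333.T0 had 26.6, 39.8 and 38.3 CPM in knots and 2.87, 1.85 and 4.11 CPM 30 h before, a log2 change of 3.58 ± 0.25 (adjusted p = 3.04e-09). CopciAB_463623.T0 rose by 2.94 ± 0.24 (adjusted p = 2.38e-08), and CopciAB_500464.T0 and CopciAB_264920.T0 fell by 2.07 ± 0.21 (adjusted p = 2.66e-07) and 1.58 ± 0.18 (adjusted p = 2.22e-06). In none of these genes did the libraries of both labels overlap.

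Primordia 6 h into the light and dark cycle held more of some members than the knots. Of 148 members, 34 were higher and 4 lower, where 6.14% of all genes were higher and 7.25% lower, at a median of 0.35 against −0.03. CopciAB_505989.T0 had 138, 133 and 102 CPM in primordia and 10.7, 14.2 and 11.6 CPM in knots, a log2 change of 3.21 ± 0.38 (adjusted p = 5.83e-05). CopciAB_446662.T0 had 95.3, 123 and 123 CPM in primordia and 17.5, 13.6 and 12.9 CPM in knots, a change of 2.81 ± 0.32 (adjusted p = 4.09e-05). CopciAB_511951.T0 had 343, 440 and 505 CPM in primordia and 1474, 1262 and 1323 CPM in knots, a change of −1.81 ± 0.35 (adjusted p = 0.0028), and CopciAB_1000828.T0 fell by 1.35 ± 0.38 (adjusted p = 0.0213). Both groups were apart in each of the 4. Without the second library of the 6 h primordia the count was 22 higher and 1 lower. The call of CopciAB_1000828.T0 was lost without the first or second library of the primordia or the first of the knots.

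At 24 h in the cycle more members were called lower than higher against 6 h. Of 148 members, 32 were lower and 18 higher than at 6 h, where 7.03% of all genes were lower and 5.19% higher, at a median of −0.45 against −0.03. CopciAB_446662.T0 had 33.9, 24.0 and 31.2 CPM at 24 h and 95.3, 123 and 123 CPM at 6 h, a log2 change of −2.15 ± 0.31 (adjusted p = 0.000908), and CopciAB_498265.T0 fell by 2.42 ± 0.36 (adjusted p = 0.000969). CopciAB_511951.T0 had 2049, 1751 and 1728 CPM at 24 h and 343, 440 and 505 CPM at 6 h, a change of 1.89 ± 0.35 (adjusted p = 0.0038), and CopciAB_503075.T0 rose by 2.14 ± 0.28 (adjusted p = 0.000476). Both comparisons share the 6 h libraries. The total count fell to between 24 and 30 without any 1 of 5 of the 6 libraries, the exception being the third library of the 6 h primordia.

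The means of some members were higher in primordia than in any aerial group, given here without a test. CopciAB_367957.T0 (scaffold 9, 248814 to 249563, 3 exons, 150 amino acids) had 6117, 15899 and 8656 CPM in primordia at 12 h, and its highest aerial mean was 1883 CPM, 18 h after light. In 60 h dark mycelium its 3 libraries held 0, 0.973 and 0 CPM. CopciAB_462618.T0 averaged 1022 CPM in 12 h primordia, with 529, 939 and 1596 CPM, and its highest aerial mean was 243 CPM. CopciAB_547067.T0 averaged 1305 CPM in 12 h primordia, and its highest aerial mean was 904 CPM, 24 h after light. It had 1028, 952 and 571 CPM in primordia at 6 h and 29.2, 25.5 and 38.2 CPM in knots, a log2 change of 4.64 ± 0.66 (edgeR adjusted p = 0.00049).

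Sclerotia, resting bodies of packed hyphae, held a different mix. Against dark mycelium at 132 h, 40 of 146 members tested were higher and 50 lower, where 19.3% of all genes were higher and 21.5% lower, at a median of −0.43 against −0.07. CopciAB_393477.T0 had 166, 241 and 284 CPM in sclerotia and 2.17, 2.37 and 2.81 CPM in mycelium, a log2 change of 6.92 ± 0.36 (adjusted p = 2.92e-11). CopciAB_362513.T0, which overlaps a gene on the other strand, had 77.2, 97.6 and 70.6 CPM in sclerotia and 0.918, 1.64 and 1.45 CPM in mycelium, a change of 6.26 ± 0.39 (adjusted p = 1.73e-10). CopciAB_468111.T0, the most abundant member, had 121, 49.3 and 54.4 CPM in sclerotia and 2249, 2400 and 2251 CPM in mycelium, a change of −4.64 ± 0.28 (adjusted p = 7.09e-11). CopciAB_462137.T0 fell by 3.56 ± 0.25 (adjusted p = 4.77e-10). All 4 were without overlap.

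Plates sealed after inoculation, which the labels call a carbon dioxide treatment, had many members called lower and almost none higher. Of 146 tested, 47 were lower and 1 higher than in the labelled control, dark mycelium at 132 h. Of all genes 4.86% were lower and 6.46% higher, and the median was −0.72 for members against 0.00. CopciAB_547067.T0 had 4.76, 3.60 and 4.89 CPM in sealed plates and 34.6, 39.3 and 38.9 CPM in the control, a log2 change of −2.84 ± 0.28 (adjusted p = 1.19e-06). CopciAB_469081.T0, whose counts were not whole in 85.6% of libraries, had 10.3, 5.84 and 7.24 CPM in sealed plates and 88.5, 130 and 59.9 CPM in the control, a change of −3.33 ± 0.28 (adjusted p = 1.33e-07). The 1 member called higher was CopciAB_362513.T0, with 3.87, 5.50 and 1.87 CPM in sealed plates and 0.918, 1.64 and 1.45 CPM in the control (log2 change 1.75 ± 0.41, adjusted p = 0.0044). The mirror set of 72 genes kept at least 2-fold higher in attached than in aerial mycelium at all 8 times had 36 higher and 3 lower in sealed plates.

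Of the 16 comparisons, heat shock at 47 °C for 2 h had the most members called lower. Of 146 tested, 92 fell and 9 rose against dark mycelium at 132 h, where 28.4% of all genes fell and 27.5% rose, at a median of −1.63 against −0.05. CopciAB_96007.T0 had 6.80, 12.0 and 7.57 CPM after heat and 234, 189 and 277 CPM in the control, a log2 change of −4.27 ± 0.25 (adjusted p = 5.92e-12). CopciAB_273741.T0 fell by 3.40 ± 0.27 (adjusted p = 7.34e-10). Among the 9 that rose, CopciAB_1001326.T0 had 4458, 5136 and 5389 CPM after heat and 1.25, 2.56 and 0.997 CPM in the control, a change of 12.06 ± 0.67 (adjusted p = 2.09e-09), while its aerial libraries in the dark had 6.90, 5.06 and 7.05 CPM. CopciAB_354483.T0 rose by 6.13 ± 0.42 (adjusted p = 1.31e-09). The mirror set had 12 higher and 41 lower of 72 at a median of −1.52, so the genes kept high in attached mycelium stood lower too. Sclerotia, sealed plates and heat shock share the 132 h libraries.

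Drought and cutting, both against dark mycelium at 84 h, gave different counts. Under drought 43 of 147 members tested were lower and 9 higher, where 7.71% of all genes were lower and 9.82% higher, at a median of −0.48 against 0.02. CopciAB_496558.T0 had 2.88, 2.78 and 2.78 CPM under drought and 19.1, 16.4 and 20.8 CPM in the control, a log2 change of −2.63 ± 0.24 (adjusted p = 1.66e-06), and CopciAB_479770.T0 fell by 2.16 ± 0.23 (adjusted p = 7.1e-06). CopciAB_462618.T0 had 14.5, 18.1 and 20.3 CPM under drought and 0.619, 1.47 and 1.48 CPM in the control, a change of 3.99 ± 0.43 (adjusted p = 7.1e-06), and CopciAB_370922.T0 rose by 1.21 ± 0.18 (adjusted p = 9.44e-05). No library of either group crossed into the other.

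At 3 h after cutting with a knife, 41 of 147 members were higher and 16 lower, where 12.2% of all genes were higher and 15.7% lower, at a median of 0.45 against 0.01. CopciAB_495112.T0 had 166, 252 and 250 CPM after cutting and 38.1, 35.2 and 32.3 CPM in the control, a log2 change of 2.48 ± 0.21 (adjusted p = 3.61e-07), and CopciAB_471069.T0 rose by 2.52 ± 0.22 (adjusted p = 4.24e-07). CopciAB_96007.T0 had 17.2, 10.8 and 23.9 CPM after cutting and 215, 196 and 159 CPM in the control, a change of −3.63 ± 0.43 (adjusted p = 2.53e-05), and CopciAB_446662.T0 fell by 2.07 ± 0.22 (adjusted p = 2.5e-06). The groups did not overlap in these genes.

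With 3 h in 1 mM hydrogen peroxide, 43 of 143 members tested were higher and 11 lower than in the control of the liquid treatments, where 15.5% of all genes were higher and 8.95% lower, at a median of 0.49 against 0.06. CopciAB_441323.T0 had 242, 260 and 300 CPM with peroxide and 29.2, 12.7 and 23.9 CPM without, a log2 change of 2.99 ± 0.26 (adjusted p = 4.78e-08). CopciAB_497622.T0, which overlaps a gene on the other strand, had 361, 515 and 420 CPM with peroxide and 28.1, 14.8 and 27.6 CPM without, a change of 3.59 ± 0.25 (adjusted p = 2.47e-09). CopciAB_502602.T0 fell by 1.61 ± 0.26 (adjusted p = 7.66e-05) and CopciAB_264920.T0 by 1.01 ± 0.17 (adjusted p = 0.000105), the second just past the 2-fold limit and under it without the second peroxide library or the first or second control library.

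Hypoxia bags for 24 h gave the smallest count. With edgeR 3 of 139 members tested fell and 0 rose, where 0.536% of all genes fell and 0.585% rose, at a median of −0.33 against −0.00. At an unadjusted p under 0.05, 26 members were lower and 2 higher, against 6.05% and 6.62% of all genes. DESeq2 called 7 lower and 1 higher of 141 members, against 1.4% and 1.18% of all genes. CopciAB_96007.T0 had 118, 174 and 156 CPM in hypoxia and 386, 495 and 458 CPM in its control, a log2 change of −1.40 ± 0.22 (adjusted p = 0.0137). CopciAB_12114.T0, which overlaps a gene on the same strand, had 14.0, 13.8 and 13.8 CPM in hypoxia and 36.3, 33.4 and 32.8 CPM in its control, a change of −1.14 ± 0.21 (adjusted p = 0.0286). The libraries were apart in both genes, but the calls are fragile: without the second or the third control library 0 members were called, and without the second or the third hypoxia library 1 was.

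Most members had no other member beside them, and there was 1 larger cluster. Of 148, 130 had no other member as a neighbour, 14 formed 7 neighbouring pairs, and 4 lay in 1 run on scaffold 8, from 1611105 to 1624705. Neighbours were counted with at most 1 other counted gene between them. How many of 148 genes placed at random would be neighbours was not computed. The run holds 6 consecutive genes, of which CopciAB_441323.T0, CopciAB_501042.T0, CopciAB_441320.T0 and CopciAB_376281.T0 are members. CopciAB_376268.T0 between them had a geometric mean ratio of 8.63 but only 1.77 at 24 h after light, and CopciAB_1001817.T0, at 3.96 CPM on average in aerial mycelium, had 1.57. Beyond the run, CopciAB_559307.T0 had 5.18 with 1.00 at 24 h, and CopciAB_441325.T0 on the other side had 0.93.

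Within the run the ratios changed together with time. CopciAB_501042.T0 stood at 7.73 in the dark and 28.7 with 2 h of light, then at 12.7, 5.26 and 2.16 in the pairs 6, 18 and 24 h later, and CopciAB_376281.T0 at 10.1, 30.4, 12.4, 4.54 and 2.77. CopciAB_441323.T0 did not follow, at 4.74 in the dark, 4.12 after 2 h of light and 4.27 at 24 h. The libraries behind these ratios show both tissues. CopciAB_501042.T0 had 1379, 2859 and 1723 CPM in aerial and 58.3, 91.7 and 55.9 CPM in attached mycelium after 2 h of light, and 7856, 5968 and 2962 CPM in aerial and 3812, 2529 and 1437 CPM in attached mycelium at 24 h. Both tissues were higher at 24 h, the attached one by more, and there the libraries overlapped.

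**Figure D5:**
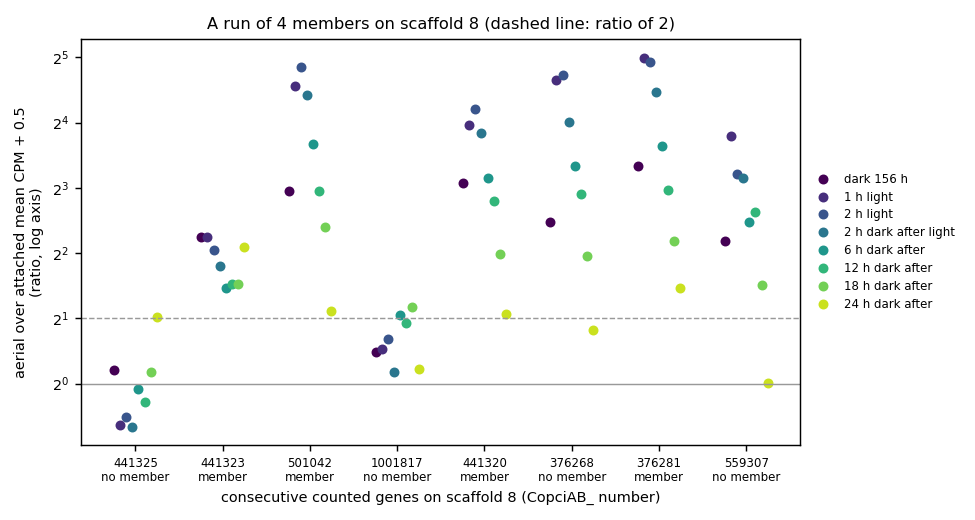
Ratio of aerial to attached mean CPM plus 0.5 (y axis, log axis) for the 8 consecutive counted genes around the run on scaffold 8 (x axis), with 1 point for each of 8 sampling times. For CopciAB_501042.T0 and CopciAB_376281.T0 the ratio goes up to 28.7 and 31.8 in light and down to 2.16 and 2.77 at 24 h after it, while CopciAB_441323.T0 stays between 2.75 and 4.74.

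In the tested comparisons, CopciAB_501042.T0, CopciAB_441320.T0 and CopciAB_376281.T0 were all called in the same direction in 6 of 16, and only 1 or 2 of them were called in 5. These 3 leave out the run's other member, CopciAB_441323.T0, whose ratios did not follow. Where the 3 shared a call, it was called with them only in hydrogen peroxide and in Trichoderma contact. Water agar and Trichoderma contact, both among those 6, were set against dark mycelium at 60 h, the low point of the dark course. There the 3 genes averaged 57.8, 22.9 and 41.7 CPM, and at 84 h 417, 104 and 275 CPM. In Trichoderma contact they averaged 593, 183 and 347 CPM, and after 24 h on water agar 1240, 484 and 638 CPM. How often other sets of 3 genes share their calls was not computed. CopciAB_501042.T0, CopciAB_441320.T0 and CopciAB_376281.T0 rose on water agar at 24 h by 4.51 ± 0.38, 4.48 ± 0.25 and 4.02 ± 0.26 (edgeR adjusted p = 1.47e-07, 3.02e-11 and 4.57e-10). They fell after heat shock by 2.45 ± 0.25, 2.01 ± 0.19 and 2.84 ± 0.34 (edgeR adjusted p = 1.96e-08, 1.12e-08 and 1.28e-06). CopciAB_441323.T0 was called in neither. In primordia at 6 h the 3 rose by 1.81 ± 0.49, 1.40 ± 0.39 and 2.15 ± 0.48 against knots (edgeR adjusted p = 0.0189, 0.0209 and 0.00674). In germinated oidia they parted: CopciAB_441320.T0 fell by 2.46 ± 0.24 (edgeR adjusted p = 1.08e-08), as did CopciAB_441323.T0 by 3.55 ± 0.31 (edgeR adjusted p = 2.1e-09), while the adjusted p was 0.951 for CopciAB_501042.T0 and 0.602 for CopciAB_376281.T0. Between resting oidia and resting basidiospores, CopciAB_501042.T0 was higher in oidia by 1.68 ± 0.57 (edgeR adjusted p = 0.0132) and CopciAB_376281.T0 lower, at −3.28 ± 0.47 (edgeR adjusted p = 5.07e-06).

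The gene models of the members had a median of 5 exons, as did the 7199 genes, and a median of 375 coding codons against 436. Models of up to 150 amino acids made up 15.5% of the members and 9.31% of the 7199 genes. Over all 13617 counted genes the median was 372 codons and such models made up 16.3%. The members were thus shorter only beside the 7199 genes. A single exon was found in 3 members (2.03%), against 2.68% of the 7199 genes and 7.95% of all counted genes. The most abundant member, with 110 amino acids, and the second by ratio, with 114, belong to these short models. The files pair none of them with a protein family.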

How the data were processed

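The deposited table holds expected counts of the authors for each gene, without normalization, and came with their CopciAB V2 annotation. Per the labels' protocols, QuantSeq 3′ FWD libraries were sequenced as 75 bp single reads, and the tools, per the submitters' processing notes, included featureCounts and STAR 2.6.1a. Not given in the sources used here are the version, strand setting and multiple-hit treatment of featureCounts. Values other than whole numbers made up 19.9% of the nonzero entries, and counts were rounded for the tests. CPM were computed from the deposited counts and column sums, without TMM, and log2 levels with 0.5 added. The median library total was 9984538.

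The members, the mirror set and the comparisons were chosen with earlier results of these data known. The 16 comparisons used edgeR 4.0.16 in R 4.3.3 (TMM, filterByExpr at a minimum count of 10, robust quasi-likelihood test), in 10 fits in which groups that share a control or a course were fitted together, on between 10256 and 11377 genes. The fitting was tested on simulated data with the same spread set for every gene. In these data 200 genes with at least 10 CPM in the reference group were changed. Over the 16 comparisons it recovered 8% to 34% of 2-fold changes, 90% to 100% of 4-fold ones and 100% of 8-fold and 16-fold ones. A comparison had 2 to 11 false calls. A member that was not called may thus still have changed by about 2-fold. Members at lower levels or with a wider spread were not covered, and may have changed by more without a call. Alternatives were scaling by relative log expression (RLE), no filter, DESeq2 1.42.0, the replicate number as a block and leaving out each library, and for the rule TMM-scaled CPM, 2 added in place of 0.5, group medians and leaving out each replicate. Named genes were the 15 members with the largest ratio, the 10 most abundant, the 3 lowest ranked and the 3 just outside the rule, the 3 with the largest and the 3 with the smallest light change in aerial mycelium, the 2 called members with the smallest p in each direction of each comparison, and runs of 3 or more neighbours. CopciAB_517961.T0, the runs' other genes and the values of CopciAB_501042.T0, CopciAB_547067.T0, CopciAB_367957.T0 and CopciAB_462618.T0 in further groups were added after their values were seen. Replicate numbers did not pair the samples: correlations of same-numbered deviations ran from −0.317 to 0.240, and in 0 of 16 comparisons were all over 0.1. In the spore and sclerotia comparisons 1 or 2 members were at 0 in every library of 1 group. With these at the bound that a floor of 3 counts over the group gives, the medians stayed at −0.77, −0.78, 1.49 and −0.43.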

Additional observations from a re-analysis of the deposited data

Results flagged for a closer look

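Groups of 3 libraries are too small for a check of single libraries, and no member moved in opposite directions with light in aerial and attached mycelium without overlap. The values below were picked because a member stood at least 8-fold above its control, without overlap, in a stress group that none of the tested comparisons uses. A single member is given for each such group, with no test. Only rises were picked. At 2-fold without overlap, lower and higher members were 45 and 4 after freezing, 29 and 6 in cobalt and 29 and 8 in cold. They were 38 and 30 with voriconazole, 36 and 30 in calcium, 12 and 7 in copper and 21 and 21 in sorbitol. Acid had 13 and 14, congo red 7 and 32, alkaline medium 0 and 39 and Trichoderma overgrowth 16 and 37. The shares of all genes were not computed for these groups, so nothing particular to the members is read from these counts.

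CopciAB_362513.T0 averaged 86.5 CPM in 200 mM calcium, with 84.7, 78.8 and 96.0 CPM, against 0.223 CPM in its control. The same gene averaged 8.45 CPM after 4 h at 4 °C, with 0.598, 6.52 and 18.2 CPM, against 0.296 CPM in dark mycelium at 84 h, so the cold libraries differ widely. CopciAB_1001326.T0 averaged 6755 CPM in 2 mM copper sulfate, with 15115, 2407 and 2744 CPM, against 232 CPM in the control. It also averaged 168 CPM where Trichoderma had overgrown the mycelium, against 4.27 CPM in dark mycelium at 108 h, and those overgrown libraries held from 213736 to 961041 counts. CopciAB_354786.T0 averaged 41.3 CPM with voriconazole, an antifungal, with 40.7, 43.0 and 40.2 CPM, against 1.17 CPM in its control. CopciAB_498082.T0 averaged 52.9 CPM in 10% sorbitol, with 36.6, 23.1 and 99.1 CPM, against 1.02 CPM in the liquid control. CopciAB_440687.T0 averaged 24.2 CPM with congo red, a dye that stresses the cell wall, against 1.06 CPM, and CopciAB_489324.T0 averaged 33.3 CPM in alkaline medium against 2.80 CPM. CopciAB_32225.T0 averaged 21.8 CPM in 2 mM cobalt chloride, with 7.64, 33.7 and 24.1 CPM, against 1.99 CPM in its control. The label of the cobalt group also names 2 h of light and then 22 h of dark.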

How the results depend on the processing

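Of 86 recomputed totals of members called that kept every library, 82 lay within 1.5 times the reported one, as did 89 of 99 that left out 1 library. The totals that moved were water agar at 24 h against dark mycelium at 84 h (63, reported 100), Trichoderma contact against dark mycelium at 84 h (40, reported 74), and hypoxia with no filter (5) or DESeq2 (8, reported 3). Leaving out 1 library gave 23 to 36 for primordia at 6 h (reported 38), 24 to 52 for primordia at 24 h (reported 50) and 0 to 4 for hypoxia. The rule itself gave 120 members with TMM-scaled CPM, 126 with 2 added to the means, 142 with medians and 124 to 157 without 1 replicate, of which 120, 126, 127 and 116 to 137 were among the 148. With the replicate number as a block, the total was 43 for primordia at 24 h, 2 for hypoxia and 37 for primordia at 6 h, and CopciAB_12114.T0 lost its call in hypoxia (adjusted p = 0.101). The block changed no other named call. Of 622 recomputed values of 61 named results, 600 kept direction and call, 21 lost the call and 1 reversed: CopciAB_494418.T0 had a log2 change of 0.92 with 2 h on water agar as the base, against −1.32 as reported. With RLE scaling the median log2 change of all genes was −0.12 in germinated oidia and 0.06 in germinated basidiospores, against 0.03 and 0.21 with TMM. The causes were not tested. Depth limits members near 10 CPM: in the library of 213736 counts 1 count is worth several CPM.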
